A study of Mus musculus with 8 samples.

Results

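Programmed inflammatory cell death was examined in the degenerating mouse retina through 8 genes: Pycard, Casp1, Gsdmd and Il1b of the inflammasome arm, and Casp8, Ripk1, Ripk3 and Mlkl of the arm that links death receptors to apoptosis and necroptosis. They were taken by name, as the rows of the raw counts table whose Ensembl identifiers map to these symbols, and all 8 were found among 57010 identifiers. Whole-retina poly(A) RNA was sequenced from 4 groups of mice, wild-type (WT) at postnatal day 15 (P15) and rd10 at P15, P18 and P21, each with 2 libraries. Mice of the rd10 line are homozygous for a mutation in Pde6b, the gene of the beta subunit of the rod phosphodiesterase, and lose their rods in the weeks after eye opening. The mutation is carried in all cells from conception. No other allele or agent was given for these groups, and the only WT retinas were taken at P15, so age and degeneration cannot be told apart in the comparisons of P18 and P21 with WT. How many animals stand behind a library was not given in the sources used here. The p-values measure the spread between the 2 libraries of a group, shared over the 4 groups. Over all tested genes the 2 libraries differed most in rd10 P18. The median size of their log2 ratio was 0.42 there and 0.24 in each other group. The shared spread can therefore be too small for the comparisons with P18. By counts of Y-linked genes, the 2 libraries differed in sex in rd10 P18 and in rd10 P21, so they came from different animals. In WT P15 and rd10 P15 the spread may be technical.

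The inflammasome is a complex in which a sensor protein, the adaptor ASC (encoded by Pycard) and the protease caspase-1 assemble. Caspase-1 then cleaves the interleukin-1 beta precursor, the product of Il1b, and gasdermin D, the product of Gsdmd, whose freed end forms pores in the plasma membrane. In necroptosis the kinase RIPK1, recruited by death receptors, engages the kinase RIPK3, which phosphorylates the membrane-rupturing protein MLKL, and caspase-8 restrains this route by cleaving RIPK1 and RIPK3. All of these proteins are controlled by cleavage, assembly or phosphorylation, so transcript levels report the supply of components and not their activation. In bulk retina, fewer cells of a type and less RNA per cell cannot be told apart.

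The 8 genes lie on 8 chromosomes. In GENCODE M21 (GRCm38), Pycard (ENSMUSG00000030793) is at chr7:127989708-127993867, Casp1 (ENSMUSG00000025888) at chr9:5298517-5307265, Gsdmd (ENSMUSG00000022575) at chr15:75862327-75867408 and Il1b (ENSMUSG00000027398) at chr2:129364570-129371139. Casp8 (ENSMUSG00000026029) is at chr1:58795374-58847503, Ripk1 (ENSMUSG00000021408) at chr13:34002363-34037147, Ripk3 (ENSMUSG00000022221) at chr14:55784995-55788865 and Mlkl (ENSMUSG00000012519) at chr8:111311797-111338177. Ripk1 shares 241 exonic bases with Serpinb6a on the other strand and 511 with a processed pseudogene on its own strand. Pycard shares 485 exonic bases with an uncharacterized transcript on the other strand, and Il1b shares 25 with its antisense gene. Whether strand was used in counting is not given in the sources used here, so reads from these stretches cannot be assigned to a strand.

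In all 8 genes both P18 libraries lay above both WT P15 libraries, an order that held for 24.1% of all tested genes. Il1b was tested only because of its P18 libraries, and Ripk3 was not tested. The sequences just upstream of the annotated starts are shown for the adaptor, the protease and the cytokine of the inflammasome. They come from RefSeq (GRCm38.p6), which matched 7 of the 8 genes, and each run is the 250 bases before the start, 5′ to 3′ on the gene's strand. Capitals mark the ETS core AGGAAG or its reverse complement CTTCCT, a core recognized by the macrophage factor PU.1 and other ETS proteins.
Casp1, chr9:5298267-5298516, plus strand: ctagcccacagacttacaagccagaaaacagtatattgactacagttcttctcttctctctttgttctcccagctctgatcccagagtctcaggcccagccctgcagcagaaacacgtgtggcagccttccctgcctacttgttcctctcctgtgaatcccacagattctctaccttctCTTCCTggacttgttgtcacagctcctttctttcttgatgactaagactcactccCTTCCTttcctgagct
Pycard, chr7:127993868-127994117, minus strand: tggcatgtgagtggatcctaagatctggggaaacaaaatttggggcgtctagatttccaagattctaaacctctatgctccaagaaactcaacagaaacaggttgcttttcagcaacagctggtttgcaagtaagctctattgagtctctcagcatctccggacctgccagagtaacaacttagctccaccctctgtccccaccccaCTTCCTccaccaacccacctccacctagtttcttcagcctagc
Il1b, chr2:129371140-129371389, minus strand: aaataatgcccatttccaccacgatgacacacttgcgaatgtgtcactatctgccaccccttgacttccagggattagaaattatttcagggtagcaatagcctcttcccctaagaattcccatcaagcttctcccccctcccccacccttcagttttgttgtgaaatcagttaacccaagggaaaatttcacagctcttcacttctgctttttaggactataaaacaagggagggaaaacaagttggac
The ETS core stood at positions -71 to -66 and -16 to -11 of Casp1, counted back from the start, and at -43 to -38 of Pycard. Among the genes not shown, the core was also found at -213 to -208 of a start of Ripk1. It was not found in the Il1b window, and 29.5% of 32851 upstream windows of this length hold it on either strand. The interferon-factor letters GAAANNGAAA, present in 2.98% of windows, and the NF-kB consensus, present in 7.25%, were found in none of the windows of the 7 genes. The STAT letters TTCNNNGAA, present in 7.02%, were found at a start of Ripk1 only. These matches describe letters and not bound sites.

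Total counts lay between 28076947 and 33724562 per library. Levels are given as CPM, counts scaled to the TMM-normalized library size, and differences as log2 fold changes with their standard errors (SE) from one edgeR quasi-likelihood fit over the 20457 genes that passed a filter on low counts. Of the 8 genes, 7 passed, and Ripk3 failed with at most 21 counts in any library. Il1b reached the filter's level in the P18 libraries only, so it had to be high there to be tested. Counts from Y-linked genes placed both rd10 P15 libraries and replicate 1 of rd10 P18 and of rd10 P21 as male and the other 4 as female. Sex and genotype therefore cannot be told apart between rd10 P15 and WT P15.

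None of the 7 tested genes passed adjusted p under 0.05 with a log2 fold change over 1 in any of the 6 comparisons between groups by edgeR with Benjamini-Hochberg adjustment. The counts of these genes are therefore given with the share of all tested genes that met the same criterion. Il1b, whose high P18 level was a condition of its being tested, is left out of the counts that involve P18. For rd10 P18 against WT P15, 0 of 6 were called where 1.48% of all genes were, 4 of 6 (Casp1, Casp8, Ripk1 and Pycard) had an unadjusted p under 0.05 where 17.4% of all genes did, and DESeq2 called 2 (Casp1 and Casp8) where it called 4.86%. In 6 of 6 both P18 libraries lay above both WT libraries, which held for 24.1% of all genes, and Il1b and the untested Ripk3 had the same order. The median log2 fold change of the 6 was 2.60, against 0.01 over all tested genes.

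**Figure D1:**
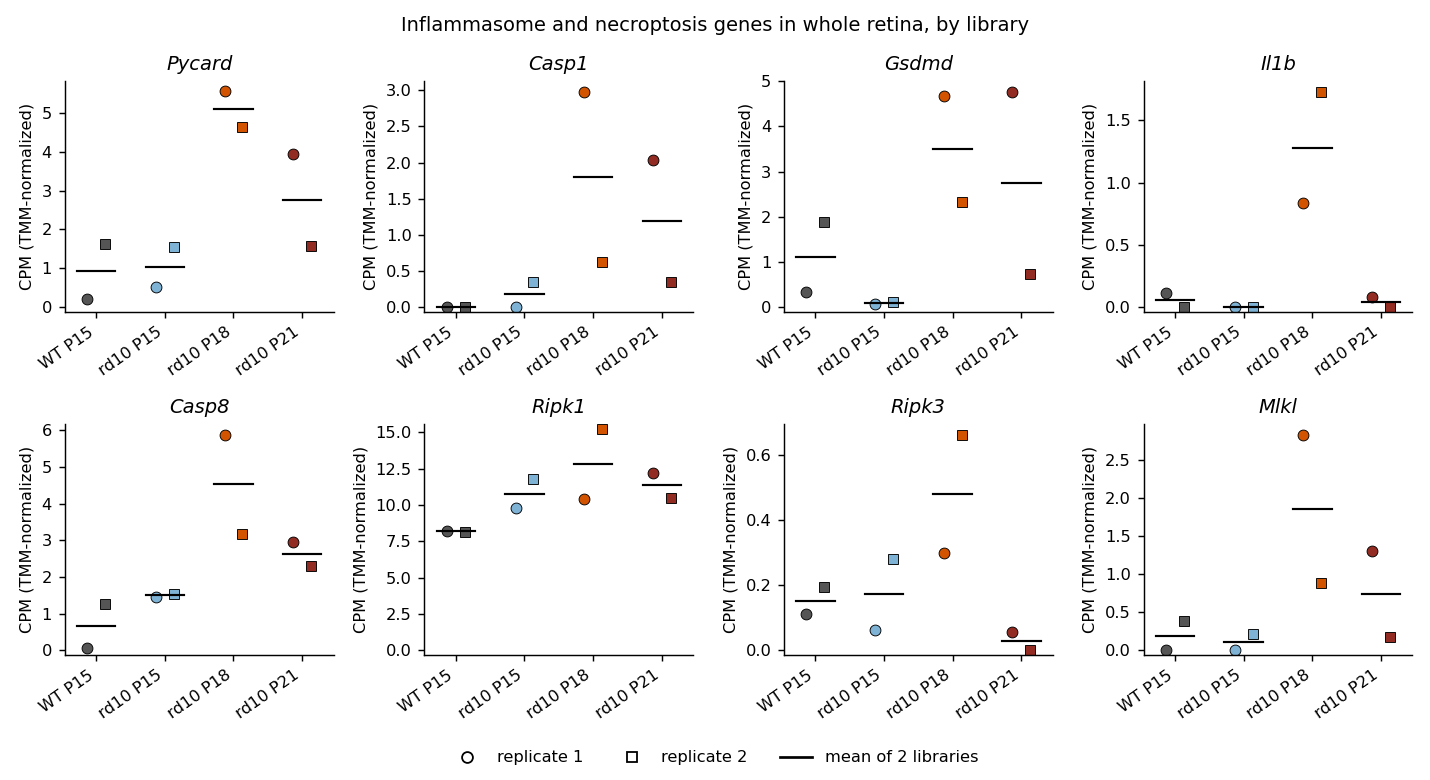
Normalized level (CPM, linear axis, a separate scale in each panel) of the 8 genes in each of the 8 retina libraries. Circles are replicate 1, squares replicate 2, and bars the mean of the 2 libraries. In every panel both rd10 P18 points lie above both WT P15 points, an order that held for 24.1% of all tested genes. For Casp1, Gsdmd and Mlkl the 2 libraries of P18 and of P21 lie far apart.

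Pycard encodes ASC, the adaptor through which most inflammasome sensors reach caspase-1. Its level was 0.222 and 1.62 CPM for WT, 0.509 and 1.55 for rd10 of the same age, 5.55 and 4.63 for P18, and 3.94 and 1.57 for P21. Both P18 libraries stood above all other libraries, the P15 groups overlapped, and replicate 2 of P21 lay below the higher WT library. The log2 fold change was 2.45 at P18 against WT P15 (SE 0.90, edgeR adjusted p = 0.22) and 2.31 against rd10 P15 (SE 0.90, edgeR adjusted p = 0.344). At P15 it was 0.15 against WT, and it took the other sign when the higher rd10 P15 library or the lower WT library was left out.

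Casp1, the protease of the inflammasome, had 0 counts in both WT P15 libraries. In rd10 retina it had 0 and 10 counts at P15, 100 and 20 at P18, and 71 and 10 at P21. Detection was thus found in 5 of 6 rd10 libraries, with replicate 1 well above replicate 2 at P18 and P21. With 3 counts over the WT group as the floor, the Casp1 level at P18 was at least 35.5-fold higher, and that at P21 at least 24.6-fold higher. The edgeR adjusted p was 0.142 at P18 and 0.26 at P21, while DESeq2 gave 0.00447 and 0.0161, so the call rested on the tool. Intervals and floors cover counting error only.

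Gsdmd, whose product forms the pyroptotic pore, had group means that ran from the lowest at P15 to the highest at P18 within the rd10 line. Its level was 0.333 and 1.88 CPM in WT, 0.0636 and 0.106 in age-matched rd10, 4.68 and 2.33 at P18, and 4.77 and 0.734 at P21. The 2 rd10 P15 libraries were the lowest of the 8, with 2 and 3 counts, and both P18 libraries exceeded both WT libraries. The log2 fold change was -3.66 at P15 against WT (SE 1.23, edgeR adjusted p = 0.277), the only unadjusted p under 0.05 among the 7 genes there. Against rd10 P15 it was 5.32 at P18 (SE 1.26, edgeR adjusted p = 0.141) and 4.97 at P21 (SE 1.25, edgeR adjusted p = 0.165). DESeq2 called both of the latter, with adjusted p-values of 0.000608 and 0.00199. For the P18 value edgeR also called it with a term for sex (adjusted p = 0.0475) and without replicate 2 of rd10 P18 (adjusted p = 0.0474). Against WT P15 the difference at P21 was 1.31 (SE 0.99) and turned to -0.59 without replicate 1 of P21.

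Il1b, the inflammasome's cytokine substrate, was counted mainly in the P18 libraries, with 28 and 55 counts. The other libraries held 3 and 0 counts in WT, 0 and 0 in rd10 at P15, and 3 and 0 at P21. The 2 P18 libraries did not overlap with any other library. The ratio of summed normalized counts at P18 was 24.6 against WT P15 (95% counting interval 8.12 to 122) and 27.0 against rd10 P21 (8.92 to 133), and the level was at least 25.3-fold higher than in rd10 P15. In edgeR the adjusted p-values were 0.287, 0.45 and 0.248, and DESeq2 called the last, with an adjusted p of 0.0362, in a gene that was tested only because of its P18 libraries. Of the 8 genes, Il1b and Ripk3 were those whose P21 libraries held at most 3 counts each.

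Casp8, the initiator caspase of death receptors, had 0.0739 and 1.26 CPM for WT, 1.46 and 1.55 for rd10 of the same age, 5.88 and 3.18 for P18, and 2.97 and 2.31 for P21. Every rd10 library lay above both WT libraries, and both P18 libraries lay above those of the other groups. The log2 fold change against WT was 1.15 at P15 (SE 0.90), 2.74 at P18 (SE 0.92, edgeR adjusted p = 0.184) and 1.96 at P21 (SE 0.91, edgeR adjusted p = 0.456). The lower WT library held 2 counts and the other 39, and without the latter the P18 value was 5.86 with an edgeR adjusted p of 0.0496. DESeq2 called Casp8 at P18 with all libraries, at an adjusted p of 0.0403.

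Ripk1, the kinase shared by survival, apoptotic and necroptotic signaling, was the most highly counted of the genes and the one with the smallest range of group means, 0.62 on the log2 scale. Its level was 8.24 and 8.13 CPM in WT, 9.77 and 11.8 in age-matched rd10, 10.4 and 15.2 at P18, and 12.2 and 10.5 at P21. Every rd10 library exceeded both WT libraries, and the 3 rd10 groups overlapped each other. The log2 fold change at P18 against WT was 0.65 (SE 0.25, edgeR adjusted p = 0.242). Its SE was the smallest of the 7, and an effect of this size lies under the fold required for a call.

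Ripk3, the kinase that activates MLKL, was barely counted, with 3 and 6 counts in WT, 2 and 8 in rd10 of that age, 10 and 21 at P18, and 2 and 0 at P21. The P18 libraries held the most, and no library of another group exceeded 8. The ratio of P18 to P21 was 15.1 (95% counting interval 3.85 to 130), and no test over libraries was made. Mlkl, the executioner of necroptosis, had 0 and 12 counts in WT, 0 and 6 in rd10 of that age, 95 and 28 at P18, and 46 and 5 at P21. Both P18 libraries lay above both P15 groups, while the P21 libraries lay on either side of the WT replicate with counts. The log2 fold change at P18 against WT was 3.21 (SE 1.77, edgeR adjusted p = 0.4) and at P21 it was 1.90 (SE 1.71, edgeR adjusted p = 0.753), turning to -0.17 without replicate 1 of P21. On the scale of CPM per kilobase of exon, Ripk3 stood at 0.0666 and Ripk1 at 0.981 in WT P15, so the kinases of this route differed widely in level.

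**Figure D2:**
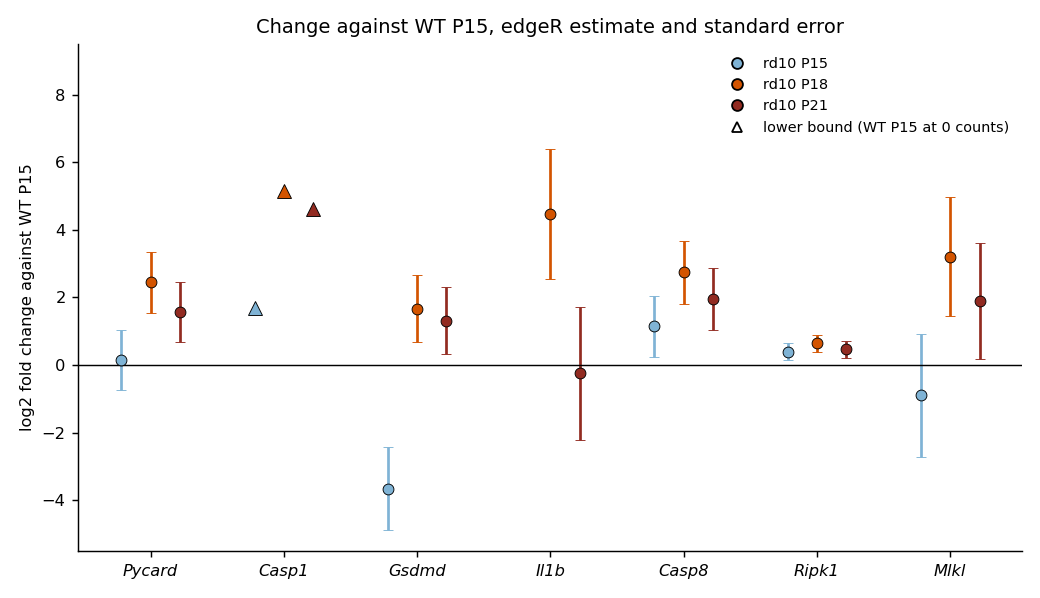
Log2 fold change of 7 genes against WT P15 at rd10 P15, P18 and P21. Circles are edgeR estimates with bars of 1 standard error, and triangles for Casp1 are lower bounds against WT libraries at 0 counts. Il1b at rd10 P15 is not drawn because that group held 0 counts, and its P21 estimate compares 3 counts with 3. The P18 estimates drawn as circles are all above 0, from 0.65 for Ripk1 to 4.47 for Il1b, and the P18 bound for Casp1 lies above them. None of the 7 genes passed the adjusted threshold in edgeR.

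In the other comparisons the shares were as follows. For rd10 P15 against WT P15, edgeR called 0 of 7 (0.23% of all genes), 1 of 7, Gsdmd, had an unadjusted p under 0.05 (12.3%), and DESeq2 called 0 (2.27%). For rd10 P21 against WT P15, edgeR called 0 (0.386%), 1, Casp1, had an unadjusted p under 0.05 (11.8%), DESeq2 called 1, Casp1 (2.91%), and 3 of 7 had both P21 libraries above both WT libraries (24.9%). For rd10 P18 against rd10 P15, edgeR called 0 of 6 (0.591%), 2, Gsdmd and Pycard, had an unadjusted p under 0.05 (12.9%), DESeq2 called 1, Gsdmd (3.04%), and 5 of 6 had both P18 libraries above both P15 libraries (21.9%). For rd10 P21 against rd10 P15, edgeR called 0 (0.401%), 1, Gsdmd, had an unadjusted p under 0.05 (12.8%), and DESeq2 called 1, Gsdmd (2.77%). For rd10 P21 against rd10 P18, edgeR called 0 of 6 (0.0196%), 0 had an unadjusted p under 0.05 (10.8%), and DESeq2 called 0 (0.66%). The estimates for P21 against P18 were negative, but over the alternatives run those of Casp1, Gsdmd and Ripk1 reached 0.91, 0.44 and 0.12. The comparisons share libraries, so their values do not support each other. An exact permutation test of 2 libraries against 2 cannot give a p under 0.333.

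To compare genes with each other, CPM were divided by exon length in kilobases, counting every annotated exon base of a gene once. The lengths were 1497 bases for Casp1, 3800 for Pycard and 8344 for Ripk1. A transcript that uses only part of its gene's annotated exons stands too low on this scale. The order of the genes therefore depends on the annotation. In WT P15, Ripk1 was the highest at 0.981 ± 0.00979 CPM per kb (SD, n = 2), followed by Gsdmd at 0.465 ± 0.46, Pycard at 0.242 ± 0.26 and Casp8 at 0.231 ± 0.291. Ripk1 stood above Gsdmd by more than their spread, and the neighbours below it did not differ beyond theirs. At rd10 P18 the order was Casp8 (1.57 ± 0.659), Ripk1 (1.54 ± 0.405), Gsdmd (1.48 ± 0.70), Pycard (1.34 ± 0.171), Casp1 (1.21 ± 1.11), Mlkl (0.807 ± 0.599), Il1b (0.673 ± 0.333) and Ripk3 (0.209 ± 0.112). The upper 7 did not differ from their neighbours beyond the spread, which was widest for Casp1, and Ripk3 stood below Il1b by more than theirs. At rd10 P21, Ripk1 was again the highest at 1.36 ± 0.144, and Il1b and Ripk3 were the lowest at 0.0225 ± 0.0318 and 0.0125 ± 0.0176.

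**Figure D3:**
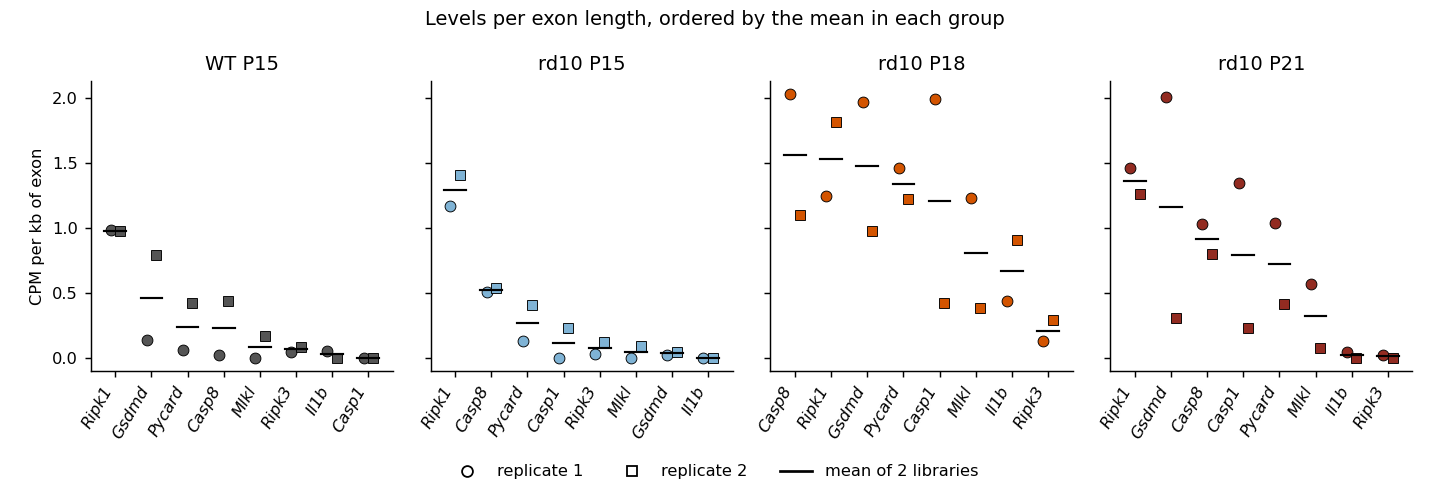
Level per exon length (CPM per kb, linear axis shared by the 4 panels) of the 8 genes, ordered in each group by the mean. Circles are replicate 1, squares replicate 2, and bars the mean. Ripk1 is the highest in WT P15, rd10 P15 and rd10 P21, while at rd10 P18 the means of 5 genes lie between 1.21 and 1.57.

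Libraries of one group differed in these genes. At P21 all 8 genes were higher in replicate 1, with a median log2 ratio of 1.29 over the 7 tested, where the median size of this ratio over all tested genes was 0.24. At P18, 5 of 8 were higher in replicate 1, and Ripk1, Ripk3 and Il1b were higher in replicate 2. The median size of the log2 ratio over all tested genes was 0.42 at P18. In both of these groups replicate 1 was male and replicate 2 female, so sex and replicate cannot be told apart there. In rd10 P15, 7 were higher in replicate 2 and Il1b was at 0 in both. In WT P15, 5 were higher in replicate 2, among them Casp8, Mlkl, Gsdmd and Pycard, with a median log2 ratio of -2.29 over the 7 tested. Summed microglial markers (14 genes, among them Cx3cr1, Csf1r and the complement C1q genes, all detected) were 80.5 and 95 CPM for WT, 124 and 121 for rd10 of the same age, 312 and 329 for P18, and 452 and 229 for P21. Of these markers, 5 of 14 were called higher at P18 and 4 of 14 at P21 against WT P15, where 1.48% and 0.386% of all genes were called in either direction. Summed markers of monocytes and macrophages (10 genes) were 18.8 and 15.6 CPM in WT, 21.9 and 17.8 in age-matched rd10, 47.1 and 38.2 at P18, and 62.6 and 27.2 at P21, with 2 of the 9 tested called higher at P18. In the P15 libraries this sum came mostly from Lyve1, with 489 and 455 counts in WT. Ccr2 had 3 and 0 counts in WT, 84 and 85 at P18 and 81 and 3 at P21. Ly6c2 had 8 and 0 in WT, 162 and 64 at P18 and 230 and 0 at P21. Mrc1 (4 and 58) and Cd163 (0 and 8) were instead higher in replicate 2 of P21. The microglial sum and that of monocytes and macrophages were highest in the P21 library in which all 8 genes were higher. Their part in the results was not tested.

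Markers of other cell types were summed in the same way. Neutrophil markers (8 genes) summed to between 37.9 and 48.4 CPM in every library, mostly from Mmp9. Ly6g, Ngp and Retnlg were at 0 throughout. S100a8, S100a9 and Cxcr2 had 51, 14 and 6 counts in replicate 1 of rd10 P18 and 0 in the P15 libraries. Csf3r had 32 and 16 counts in WT and 178 and 54 at P21. Lymphocyte markers summed to at most 4.21 CPM, with Cd3e at 0, and Nkg7 and Gzma at 15 and 10 counts in replicate 1 of rd10 P18. Their sum was 0.591 and 0.777 CPM in WT and 3.25 and 3.84 in rd10 P15. The most counted of them, Cd8a, had 11 and 0 counts in WT, 89 and 94 in rd10 P15, 79 and 37 at P18, and 54 and 23 at P21. Markers of reactive Muller glia summed to 187 and 190 CPM in WT, 256 and 203 in rd10 P15, 1380 and 1228 at P18 and 600 and 560 at P21. Against WT P15, 5 of 6 were called higher at P18 and 3 of 6 at P21. At rd10 P15, 1 of 6 was called lower, where 0.23% of all genes were called. The summed level, like the group mean of each of the 8 genes, was highest at P18. Rod markers summed to 44034 and 34983 CPM for WT, 25690 and 27079 for rd10 of the same age, 22151 and 23399 for P18, and 16822 and 21882 for P21, with 1 of 7 called lower at P18 and 1 of 7 at P21 against WT. Red blood cell markers lay between 56.8 and 188 CPM, highest in the WT libraries, and markers of Muller glia in general between 3847 and 6166. Pigment epithelium markers were 41.0 and 155 CPM in WT, 212 and 253 in rd10 at P15, and between 21.8 and 35.7 in the 4 later libraries. The WT library with more pigment epithelium RNA was also the one with more Casp8, Gsdmd and Pycard. Across groups the order differed. The rd10 P15 libraries had the highest of these sums and the lowest Gsdmd. The P18 libraries had low sums and the highest Casp8 and Pycard. The part of these cell types in the results was not tested.

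The wider pathway was read from 6 lists holding 67 other genes, of which 55 were tested. At P18 against WT P15, edgeR called 4 of the 55 higher and 1 lower (1.48% of all genes in either direction), and 24 had an unadjusted p under 0.05 (17.4%). At P21 against WT P15 it called 2 higher (0.386%). At P18 and at P21 against rd10 P15 it called 1 higher in each, Tnfrsf1a (0.591% and 0.401%). For rd10 P15 against WT P15 and P21 against P18 it called 0 (0.23% and 0.0196%), with 8 and 6 at an unadjusted p under 0.05 (12.3% and 10.8%). DESeq2 called 12 at P18 (4.86%), 7 at P21 (2.91%) and 4 at P15 (2.27%) against WT, 7 at P18 (3.04%) and 4 at P21 (2.77%) against rd10 P15, and 0 for P21 against P18 (0.66%). The 7 at P18 against rd10 P15 include Zbp1, which had to be high at P18 to be tested. Whether other genes of the lists passed the filter only through P18 was not examined.

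Among death ligands and receptors, edgeR made 3 of its 5 pathway calls at P18 against WT and DESeq2 6 of its 12. Of 10 genes, 8 were tested, and in that comparison their median log2 fold change was 2.08. Tnfrsf1a, the TNF receptor that recruits RIPK1, was 5.54 and 8.13 CPM in WT, 6.87 and 6.98 in age-matched rd10, 38.3 and 34.3 at P18, and 26.3 and 26.6 at P21. It rose by a log2 fold change of 2.41 at P18 (SE 0.22, edgeR adjusted p = 0.00389) and 1.95 at P21 (SE 0.22, edgeR adjusted p = 0.0268) against WT, and at P15 its libraries overlapped with those of WT. The P18 call held in every alternative run, while the P21 call ended without WT replicate 1 (edgeR adjusted p = 0.108), either rd10 P15 library (0.0636 and 0.0661) or P21 replicate 1 (0.0846). Against rd10 P15 the calls ended without either rd10 P15 library, with edgeR adjusted p-values from 0.0636 to 0.122, and at P21 also without P21 replicate 1 (0.067). Tnfrsf1b, the second TNF receptor, which lacks a death domain, rose from 0.776 and 1.39 CPM in WT P15 to 7.90 and 7.62 at P18 (log2 fold change 2.83, SE 0.41, edgeR adjusted p = 0.0222) and to 8.39 and 5.21 at P21 (2.64, SE 0.41, edgeR adjusted p = 0.0487). In rd10 P15 it stood at 2.80 and 2.64 CPM. Tnfrsf21, death receptor 6, went from 28 and 19.6 CPM to 47.3 and 56.7 at P18 (log2 fold change 1.13, SE 0.20, edgeR adjusted p = 0.0369). That call ended on leaving out any library but rd10 P18 replicate 1, with edgeR adjusted p-values from 0.0515 to 0.161, or a log2 fold change of 0.99 without rd10 P18 replicate 2. It also ended with a term for sex (0.0618). Tnfrsf1b at P18 had edgeR adjusted p-values of 0.155 and 0.0583 without WT replicate 1 and 2, and its P21 call ended without either WT library, either rd10 P15 library or P21 replicate 1 (0.0942 to 0.257), and with a term for sex (0.109). The ligand Tnfsf10 (TRAIL) was 1.26 and 0.518 CPM in WT P15 and 7.13 and 2.80 at P18 (edgeR adjusted p = 0.13), which DESeq2 called at 0.0203 and edgeR without rd10 P18 replicate 2 at 0.0288. Tnf had 123 counts in all, with 5 of 8 libraries at 0, and was not tested.

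Among the partners of RIPK1 and the TNF complexes, 17 of 17 genes were tested, and the median of their log2 fold changes for P18 against WT was 0.01. Tnfaip3, encoding the ubiquitin-editing inhibitor A20, was the only gene called lower. Its level was 346 and 292 CPM for WT, 138 and 66.1 for rd10 of the same age, 70.7 and 78.7 for P18, and 131 and 190 for P21. All 6 rd10 libraries lay below both WT libraries. It fell by 2.09 on the log2 scale at P18 (SE 0.35, edgeR adjusted p = 0.037), and leaving out any 1 of the 4 libraries compared gave edgeR adjusted p-values from 0.117 to 0.279. With a term for sex the adjusted p was 0.113. At P15 its log2 fold change was -1.64 (SE 0.34, edgeR adjusted p = 0.113), which DESeq2 called at 8.8e-05. Zbp1, a nucleic acid sensor that can engage RIPK3, had 0 and 9 counts in WT, 0 and 0 in rd10 of that age, 572 and 138 at P18, and 409 and 0 at P21. Its level at P18 was at least 217-fold above rd10 P15 (edgeR adjusted p = 0.389, DESeq2 adjusted p = 8.82e-05), yet P21 replicate 2 held none. The edgeR adjusted p at P18 against WT was 0.364. Outside P18 only P21 replicate 1 reached the level of the filter on low counts, so Zbp1 had to be high at P18 to be tested.

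**Figure D4:**
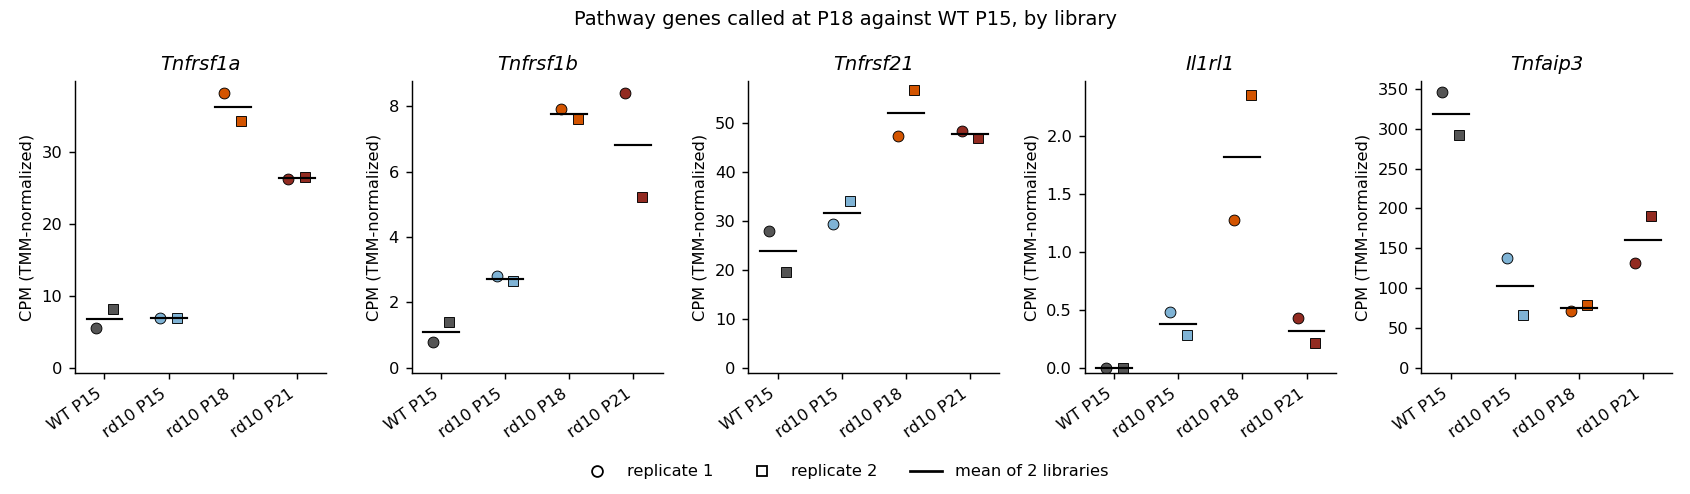
Normalized level (CPM, linear axis, a separate scale in each panel) of the 5 pathway genes called at rd10 P18 against WT P15, in each library. Circles are replicate 1, squares replicate 2, and bars the mean. Tnfrsf1a lies between 5.54 and 8.13 CPM in the P15 libraries and between 26.3 and 38.3 in the later ones, and Tnfaip3 is lower in all 6 rd10 libraries than in WT.

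Of 12 interleukin-1 family genes, 9 were tested, and their log2 fold changes at P18 had a median of 0.81. Il1rl1, the interleukin-33 receptor, was called at P18 (edgeR adjusted p = 0.0448). It had 0 counts in both WT libraries and 43 and 75 at P18, at least 34.9-fold higher, and the call ended without either WT library (edgeR adjusted p = 0.205 and 0.142), either rd10 P15 library (0.0737 and 0.073), P18 replicate 1 (0.0634) or P21 replicate 1 (0.0542), and with a term for sex (0.0965). Il33, the alarmin that binds it, was 41.6 and 48.9 CPM in WT P15 and 82.0 and 69.9 at P18 (log2 fold change 0.75, SE 0.18, edgeR adjusted p = 0.0853). Il1r1, the receptor for the product of Il1b, was 9.83 and 6.18 CPM in WT P15 and 14.3 and 13.7 at P18 (edgeR adjusted p = 0.23). Against rd10 P15, at 4.39 and 6.91 CPM, DESeq2 called it at P18 and P21, with adjusted p-values of 0.0115 and 0.031 where edgeR gave 0.139 and 0.175.

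Of 14 inflammasome sensors and regulators, 10 were tested and 0 were called, with 5 at an unadjusted p under 0.05 for P18 against WT. Of the 10 estimates, 9 were positive, and their median was 2.30 on the log2 scale. DESeq2 called Naip2 and Naip6, sensors of bacterial proteins. Naip6 held 0 counts in WT P15 and 52 at P18, at least 15.4-fold higher. P2rx7, the ATP-gated channel that triggers the inflammasome through potassium loss, was 0.185 and 0.583 CPM in WT P15, 0.776 and 3.34 at P18, and 4.48 and 2.45 at P21 (edgeR adjusted p = 0.209 at P18 and 0.189 at P21), and DESeq2 called it at P21, at 0.0202. Nek7, a kinase needed by the NLRP3 sensor, was 62.1 and 62.1 CPM in WT P15 and 61.1 and 17.3 at P18, so that replicate 2 carried its P18 difference. At P21 it was 20.8 and 62.7 CPM, low in replicate 1.

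Of 5 further pore and rupture genes, 2 were tested and 0 called by edgeR, with 1, Ninj1, at an unadjusted p under 0.05 and called by DESeq2. Ninj1, which ruptures the membrane after pore formation, was 2.92 and 8.29 CPM in WT P15 and 17.7 and 14.3 at P18 (log2 fold change 1.51, SE 0.43, edgeR adjusted p = 0.126). Gsdme, the gasdermin cut by caspase-3, was 7.39 and 11.1 CPM in WT P15 and 10.1 and 8.54 at P18, with overlapping libraries. Of 9 apoptotic caspases and apoptosome genes, all tested, 0 were called by edgeR or by DESeq2 at P18 against WT and 2 had an unadjusted p under 0.05, with a median log2 fold change of 0.12. Casp9, the apoptosome's caspase, was 32.6 and 37.9 CPM in WT P15 and 20.8 and 13.9 at P18 (log2 fold change -1.02, SE 0.41, edgeR adjusted p = 0.258), and a term for sex made it -1.52 with an edgeR adjusted p of 0.0423. Casp6, an executioner caspase, was 4.03 and 4.05 CPM in WT P15 and 6.44 and 6.93 at P18 (edgeR adjusted p = 0.381). Casp12, an inflammatory-type caspase, had 14 and 8 counts in WT, 0 and 0 in rd10 at P15, 109 and 27 at P18, and 87 and 10 at P21. DESeq2 called it lower at P15 against WT (adjusted p = 0.045) and higher at P18 (0.00061) and P21 (0.00196) against rd10 P15. In edgeR these adjusted p-values were 0.244, 0.126 and 0.148, with a call at P18 against rd10 P15 under a term for sex (0.0306) and without rd10 P18 replicate 2 (0.0192). Its level was at least 41.5-fold higher at P18 than in rd10 P15.

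The genes whose course over the 8 libraries was most like that of Gsdmd, Casp1 and Il1b, the 3 with the widest ranges of group mean log2 CPM (4.51, 4.49 and 4.29), were sought among tested genes with a mean count of at least 50. The order of these 3 is not determined, since Casp1 and Il1b each have a group at 0 counts, where the prior count sets the value. Likeness was the root mean square difference of log2 CPM centred on each gene's mean, so it describes these libraries and carries no test. Gsdmd was closest to Nupr1 (0.57), Cd274 (0.77) and Gbp9 (0.79), where the median over 15129 genes was 1.96. Like Gsdmd, these genes were highest in both P18 libraries and replicate 1 of P21. Nupr1, a stress-induced nuclear protein, had 3.44 and 5.47 CPM in WT, 0.636 and 1.3 in rd10 at P15, 25.4 and 20.2 at P18, and 17.4 and 3.08 at P21. Casp1 was closest to the immunoproteasome subunit Psmb9 (0.58), the RNA sensor regulator Dhx58 (0.70) and Trim30d (0.80), against a median of 2.12 over 15130 genes. Psmb9 was 15.2 and 3.40 CPM at P18 and 10.2 and 1.54 at P21, higher in replicate 1 of both groups, as Casp1 was. Il1b was closest to the hexokinase Hk3 (0.79), the chitinase-like Chil1 (0.86) and the cytokine signaling inhibitor Socs3 (0.88), against a median of 1.79. In these genes the P18 libraries were nearly equal, at 51.6 and 42.7 CPM for Socs3, and the P21 libraries were lower, at 12.3 and 7.83.

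**Figure D5:**
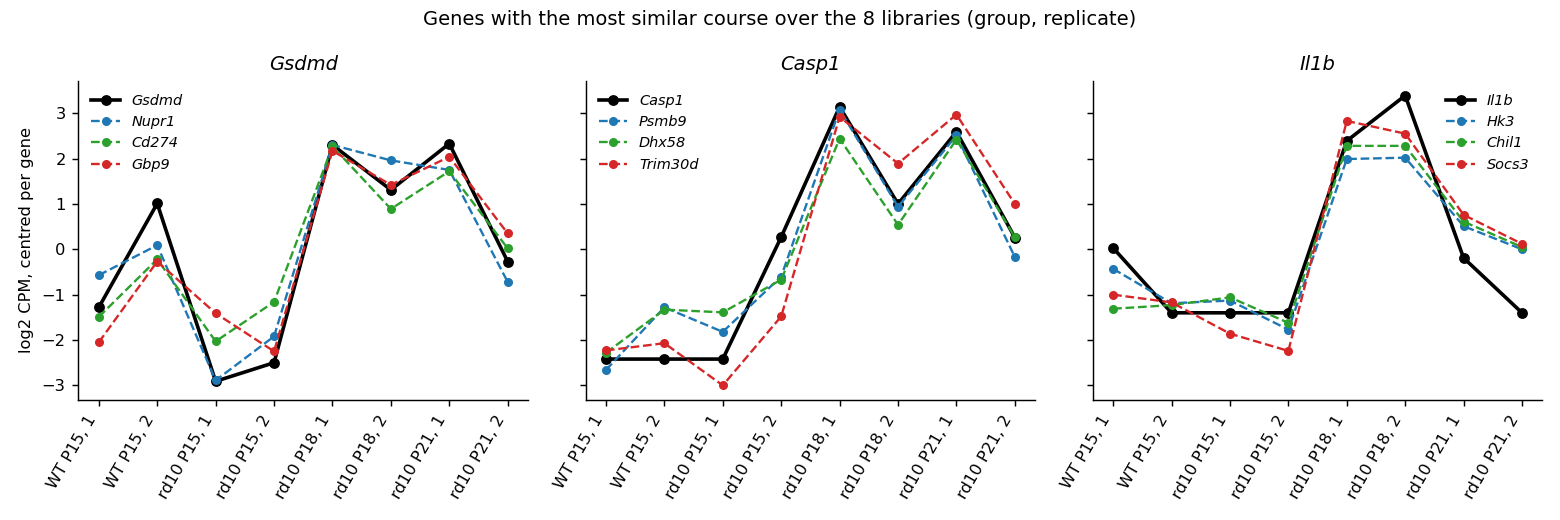
Log2 CPM, centred on each gene's mean, over the 8 libraries for Gsdmd, Casp1 and Il1b (black, solid) and the 3 genes closest to each (dashed). Gsdmd and Casp1 are higher in replicate 1 than in replicate 2 of P18 and of P21, while Il1b peaks in both P18 libraries.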

How the data were processed

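The authors deposited a table of unnormalized whole-number read counts covering 57010 mouse Ensembl genes in 8 whole-retina poly(A) libraries. The submitters' processing notes name HISAT2. The counting tool, genome build and annotation release were not given in the sources used here. All 8 columns were used, and groups came from the sample titles. Symbols, coordinates and exon lengths follow GENCODE M21 (GRCm38), where 52029 of the identifiers have a name. The members and lists were chosen with earlier results of these data known.

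Genes were kept by filterByExpr (minimum count 10, minimum total 15), scaled by TMM and fitted with edgeR 4.0.16 (limma 3.58.1, R 4.3.3), with robust quasi-likelihood over the 4 groups and 4 residual degrees of freedom. P-values were adjusted by Benjamini-Hochberg over 20457 genes, and calls required an adjusted p below 0.05 with a log2 fold change beyond 1 in size. The SE is the absolute log2 fold change divided by the square root of F. Log2 CPM used a prior count of 2. A floor of 3 counts stood in for a group without counts. DESeq2 1.42.0 percentages are over genes with an adjusted p. Named pathway genes were those called in any comparison plus, per list, the 2 with a mean count of at least 50 and the largest absolute change at P18 against WT P15. Naip2, Naip6, Tnf and Casp12 were named after their values were seen. Alternatives were other normalizations, no filter, only the 4 libraries compared, a replicate block, a sex term, each library left out and no fold threshold. Depth limits genes at a few counts per library.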

Additional observations from a re-analysis of the deposited data

How the results depend on the processing

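The number of the 7 tested genes called was 0 in each comparison. With DESeq2 it became 2 at P18 against WT P15 and 2 at P18 against rd10 P15. It became 1 at P21 against WT P15 and 1 at P21 against rd10 P15. The 2 at P18 against rd10 P15 were Gsdmd and Il1b. Il1b was tested only because of its P18 libraries, and without it that count was 1. A term for sex, read from Y-linked counts, gave 1 (Gsdmd) at P18 against rd10 P15. Leaving out each library gave 0 to 1 at P18 against WT P15 (1 was Casp8, without WT P15 replicate 2) and 0 to 1 at P18 against rd10 P15 (1 was Gsdmd, without rd10 P18 replicate 2). Pathway genes called against WT P15 numbered 5 at P18 and 2 at P21, and 1 at P18 and 1 at P21 against rd10 P15. In the same order, DESeq2 gave 12, 7, 7 and 4, with 4 at P15 against WT P15. Against WT P15, fitting only the 4 libraries compared gave 2 at P18 (Tnfrsf1a and Tnfaip3) and 1 at P21 (Tnfrsf1a). A term for sex gave 3 and 1 there, ending Il1rl1, Tnfrsf21 and Tnfaip3 and adding Casp9 at P18 and ending Tnfrsf1b at P21, and 2 at P18 against rd10 P15, adding Casp12. Leaving out each library gave from 1 to 6 (P18) and from 0 to 3 (P21) against WT P15, 0 to 2 at P18 and 0 to 1 at P21 against rd10 P15. The cause was not tested, apart from the smaller number of libraries in the fits that leave some out.

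The deviations of same-numbered libraries from their group means correlated between -0.0245 and 0.0594 over all tested genes. No general pairing by replicate number was seen. These correlations cannot show whether some genes share an effect of replicate number. With a replicate block, the calls among pathway genes against WT P15 numbered 2 at P18 (Tnfrsf1a and Tnfrsf1b, without Il1rl1 at adjusted p = 0.0801, Tnfrsf21 at 0.0613 and Tnfaip3 at 0.0633) and 1 at P21 (Tnfrsf1a), and the number of the 7 genes called stayed at 0.

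Signs turned for some differences that had not passed the test. With a term for sex, the log2 fold change was -0.07 for Gsdmd at P21 and -0.64 for Pycard at P15, both against WT P15. Over the fits leaving out each library, values against WT P15 ran from -5.65 to 4.73 for Mlkl at P15, from -0.17 to 7.54 for Mlkl at P21, from -0.59 to 3.04 for Gsdmd at P21, from -0.86 to 2.19 for Pycard at P15 and from -3.81 to 3.61 for Il1b at P21. RLE size factors, library size alone, no filter and no fold threshold reversed none of the reported log2 fold changes. With 2 libraries per group and genes at a few counts, differences of the size reported here could be missed, and the counts do not separate age from genotype at P18 and P21.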
